A study of Mus musculus with 8 samples.

Results

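The genes described are 10 of the 37018 genes and transcripts measured on arrays of FURIN-deficient and wild-type peritoneal macrophages, namely Cyp11a1, Hsd3b1, Mgarp, Sparc, Pcolce, Htra1, Sfrp2, Clu, Cpe and Ephx2. They were selected on the measured KO/WT ratios of the 2 replicates, which were far below 1 in replicate 1 and far above 1 in replicate 2, and they had been named stromal and steroidogenic genes. Each gene was found on the array by its transcript identifier and is represented by its brightest probe. All 10 were among the 36947 genes and transcripts tested.

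Cells washed out of the peritoneal cavity of mice with a C57BL/6 background were plated, non-adherent cells were washed off, and the adherent macrophages were left unstimulated or received LPS, a bacterial cell wall component that activates TLR4, at 1 μg/ml for 1, 4 or 24 h. The FURIN KO cells came from LysMCre-fur(fl/fl) mice, in which Cre expressed from the lysozyme M locus (Lyz2) removes the floxed fur allele in myeloid cells, and the WT cells from littermates. Age and sex of the array animals are not given in the sources used here, and neither is the number of mice behind a sample. Cells of other types were not the target of this Cre, so a deletion in them is not to be assumed. A time point was measured on 2 of the 8 arrays, each with WT RNA in one dye and KO RNA in the other, and the labels call these biological replicates 1 and 2. Cy3 marked the WT cells of replicate 1 and the KO cells of replicate 2, and Cy5 the remaining samples. A difference between the replicates therefore cannot be told apart from a difference between the dyes. For brevity, the 4 samples of 1 genotype and 1 replicate number are called a culture, although it is not stated whether their time points came from the same animals.

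Steroid hormones are made from cholesterol in the adrenal cortex and the gonads. CYP11A1 cleaves the cholesterol side chain in mitochondria, with electrons delivered by ferredoxin and ferredoxin reductase, and enzymes of the HSD3B family then act on the pregnenolone it yields. Stromal cells such as fibroblasts make collagens together with secreted proteins that bind, process or remodel the matrix, among them SPARC, PCOLCE and HTRA1. None of these is a hallmark of macrophages, which are known for surface molecules such as the adhesion receptor Adgre1 and the CSF1 receptor (Csf1r).

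Values are background-corrected, normalized log2 intensities, and each KO/WT ratio comes from a single array. A value is called well above background where the scanner software marked it so. Levels in different arrays were placed on 1 scale by quantile normalization, and levels of different genes are not compared because probes differ in brightness. Because whole cultures were measured, more cells of a kind and more RNA per cell cannot be told apart. Of all gene spots, 45.1 to 51.3% were well above background in Cy3 and 43.8 to 48.0% in Cy5, and the number of arrays limits the precision.

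The labels were checked on the targeted gene first. The log2 intensity of Furin in replicate 1 was 11.56, 11.27, 12.02 and 11.18 in WT cells at 0, 1, 4 and 24 h, against 10.98, 10.71, 12.02 and 10.59 in KO cells. In replicate 2 the WT cells had 11.48, 11.24, 11.64 and 11.06, and the KO cells 10.63, 10.69, 11.97 and 10.37. The log2 KO/WT averaged -0.44 over the time points (standard error 0.06, adjusted p = 0.0220, limma), and KO was below WT on both arrays at 0, 1 and 24 h but on neither at 4 h. At single time points Furin did not pass without a term for the replicate (adjusted p = 0.163, 0.458 and 0.185 at 0, 1 and 24 h), and with it the values were 0.0123, 0.0477 and 0.0227. Whether the Furin probe lies in the deleted part of the gene was not tested. Lyz2, whose locus drives Cre, was lower in KO on all 8 arrays and averaged -1.16 (standard error 0.05, adjusted p = 0.000341). With Feature Extraction's processed signals the means were -0.48 for Furin and -1.23 for Lyz2, and neither passed (adjusted p = 0.179 and 0.0921). When 1 array was left out, Lyz2 passed each time, whereas Furin passed only without the 24 h array of replicate 1 (0.0444) and otherwise had 0.0618 to 0.0914. All 14 macrophage genes measured were well above background in at least 4 of the 16 channels, with log2 intensities of Adgre1 averaging 15.6 to 15.7 and of Csf1r 16.2 to 16.8 in the 4 cultures.

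All 10 genes had the same order of mean level. WT cells of replicate 1 were highest, KO cells of replicate 2 came next, KO cells of replicate 1 followed and WT cells of replicate 2 were lowest. The upper cultures were thus those labelled with Cy3, and the lower cultures those labelled with Cy5. This order, and the size of the ratios, is what the genes were chosen for and is given as a description without a test. Of the 160 values of the 10 genes, 143 were well above background, namely 40 of 40 in WT cells of replicate 1, 39 in KO cells of replicate 2, 35 in KO cells of replicate 1 and 29 in WT cells of replicate 2.

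**Figure D1:**
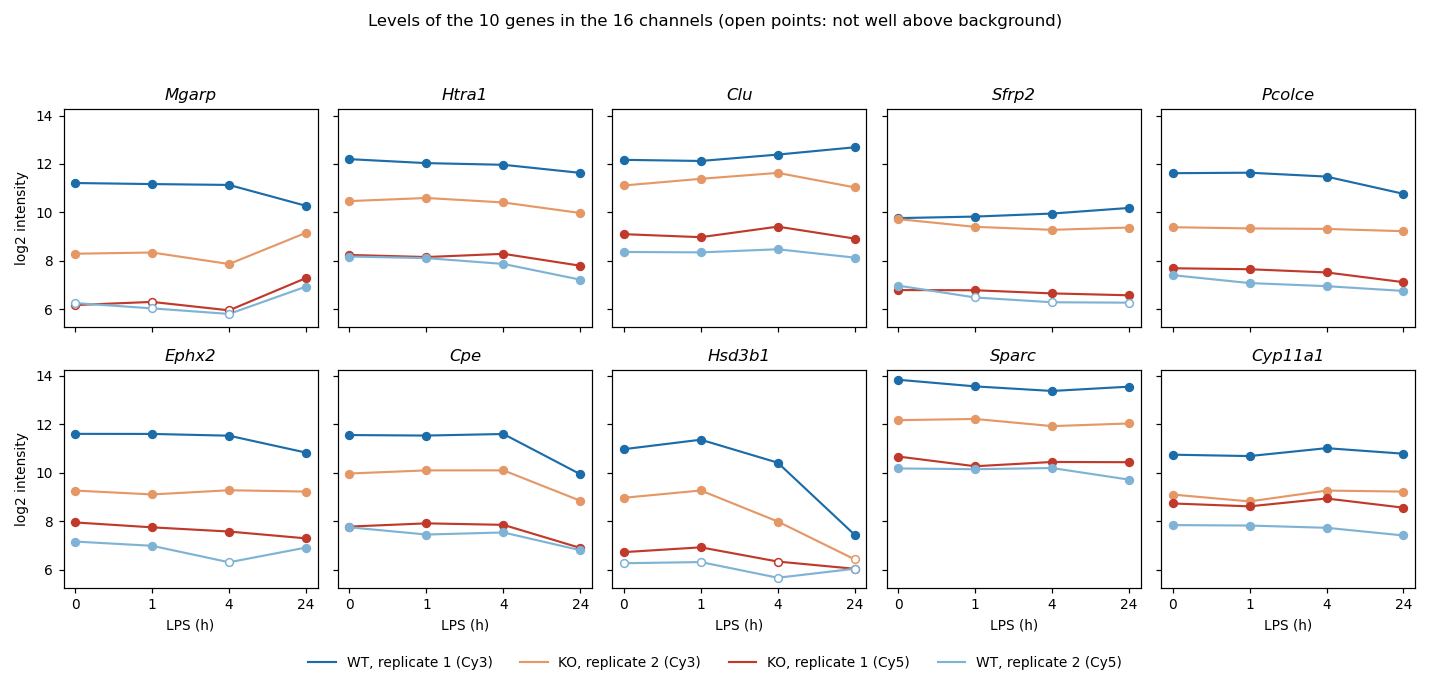
Log2 intensity of each of the 10 genes (vertical axis) against hours of LPS (horizontal axis, not to scale) in WT and KO cells of replicates 1 and 2, 1 line per culture and 1 point per channel, open where it was not well above background. In every panel the WT line of replicate 1 lies highest and the KO line of replicate 2 second, and the Hsd3b1 lines of both come down by 24 h.

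Cyp11a1 encodes the enzyme of the first step of steroid synthesis. In replicate 1 its log2 intensity was 10.75, 10.69, 11.01 and 10.79 in WT cells at 0, 1, 4 and 24 h and 8.73, 8.61, 8.93 and 8.55 in KO cells. In replicate 2 it was 7.84, 7.82, 7.72 and 7.41 in WT cells and 9.10, 8.81, 9.26 and 9.22 in KO cells. WT cells were therefore high in one replicate and low in the other, with no overlap between any WT level of replicate 1 and any of replicate 2, and all 16 values were well above background. The KO/WT log2 ratio lay between -2.23 and -2.01 on the arrays of replicate 1 and between 1.00 and 1.81 on those of replicate 2. The KO cultures were closer to each other, 0.39 ± 0.20 apart on the log2 scale (SD over the 4 time points), than the WT cultures, which were 3.11 ± 0.26 apart. By the mean over the time points Cyp11a1 was the least divergent of the 10 genes in both replicates, whereas at 24 h Hsd3b1, near background, diverged less.

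Hsd3b1, an enzyme that converts pregnenolone to progesterone, gave 10.97, 11.36, 10.41 and 7.43 in WT cells and 6.72, 6.92, 6.33 and 6.03 in KO cells of replicate 1. In replicate 2 it gave 6.26, 6.31, 5.66 and 6.03 in WT cells and 8.96, 9.27, 7.98 and 6.42 in KO cells. It was not well above background in any WT sample of replicate 2, in the KO samples of replicate 1 at 4 and 24 h, nor in the KO sample of replicate 2 at 24 h. In unstimulated cells WT exceeded KO 19.1-fold in replicate 1, and KO exceeded WT at least 5.75-fold in replicate 2. These bounds set the brighter channel against the dimmest signals that were well above background on that array. At 24 h the high cultures had come close to the background and the ratios shrank, to at least 2.03-fold in replicate 1, with neither channel well above background in replicate 2.

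Mgarp encodes a mitochondrial protein known from steroid-producing tissues such as ovary and adrenal gland. In replicate 1 it read 11.21, 11.17, 11.13 and 10.27 in WT cells and 6.17, 6.30, 5.95 and 7.29 in KO cells. In replicate 2 it read 6.25, 6.03, 5.80 and 6.93 in WT cells and 8.29, 8.34, 7.87 and 9.16 in KO cells. The low cultures were not well above background at 0, 1 and 4 h, and both were at 24 h. The WT excess of replicate 1 was at least 27.1-fold without LPS, at least 27.4-fold at 1 h, at least 31.7-fold at 4 h and 7.91-fold at 24 h. The KO excess of replicate 2 was at least 3.60-fold, at least 4.74-fold, at least 2.41-fold and 4.67-fold. In replicate 1 the bounds of Mgarp at 0 and 1 h lay above the ratios of the other genes, whereas at 24 h Htra1, for instance, differed more, 14.3-fold.

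Hsd3b1 and Cyp11a1 are expressed where the nuclear receptor SF-1 (Nr5a1) is active, so the RefSeq promoters of the 10 genes (GRCm38.p6, 250 bases before to 50 after the annotated start) were searched for its extended half-site AAGGTCA, for the AP-1 motif TGANTCA, for the SP1 motif GGGCGG and for the TATA motif TATAAA, on both strands. The reference table holds 8 promoters for 7 of the 10 genes, Cyp11a1 having 2, and none for Clu, Ephx2 and Cpe. The promoters of the 3 steroid-related genes and of Sparc are shown, each read 5′ to 3′ on the strand of its gene, because they stand for the mitochondrial and the matrix genes of the list. Capitals mark GGGCGG or its complement.
Cyp11a1, chr9:57997774-57998073, plus strand: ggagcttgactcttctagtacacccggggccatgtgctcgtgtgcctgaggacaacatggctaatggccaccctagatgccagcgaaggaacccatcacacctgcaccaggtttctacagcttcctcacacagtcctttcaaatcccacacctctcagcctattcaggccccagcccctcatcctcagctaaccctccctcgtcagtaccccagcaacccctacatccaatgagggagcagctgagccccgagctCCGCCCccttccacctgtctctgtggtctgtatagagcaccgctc
Cyp11a1, chr9:58014702-58015001, plus strand: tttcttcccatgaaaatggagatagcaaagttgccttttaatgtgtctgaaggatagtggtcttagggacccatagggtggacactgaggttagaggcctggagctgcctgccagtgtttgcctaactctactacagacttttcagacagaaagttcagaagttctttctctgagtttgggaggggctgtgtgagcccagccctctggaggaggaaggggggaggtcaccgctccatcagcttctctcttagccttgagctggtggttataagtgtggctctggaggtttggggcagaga
Hsd3b1, chr3:98859745-98860044, minus strand: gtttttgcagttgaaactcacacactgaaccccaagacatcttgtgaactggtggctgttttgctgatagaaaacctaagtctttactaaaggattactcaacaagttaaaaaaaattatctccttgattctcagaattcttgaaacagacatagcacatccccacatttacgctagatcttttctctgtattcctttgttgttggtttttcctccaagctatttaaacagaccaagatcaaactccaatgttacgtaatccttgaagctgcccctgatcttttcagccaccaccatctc
Mgarp, chr3:51396498-51396797, minus strand: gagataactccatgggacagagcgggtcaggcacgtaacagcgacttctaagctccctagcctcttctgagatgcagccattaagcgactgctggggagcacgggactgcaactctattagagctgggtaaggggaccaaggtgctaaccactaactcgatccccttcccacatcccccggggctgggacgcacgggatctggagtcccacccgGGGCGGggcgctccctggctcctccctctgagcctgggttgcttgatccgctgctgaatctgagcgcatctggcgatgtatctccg
Sparc, chr11:55420031-55420330, minus strand: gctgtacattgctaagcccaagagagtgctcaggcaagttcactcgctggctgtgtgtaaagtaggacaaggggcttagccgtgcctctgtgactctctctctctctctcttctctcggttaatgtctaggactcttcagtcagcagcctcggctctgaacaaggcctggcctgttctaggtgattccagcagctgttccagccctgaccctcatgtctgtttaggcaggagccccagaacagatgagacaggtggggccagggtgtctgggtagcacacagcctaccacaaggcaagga

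Neither the half-site, the AP-1 motif nor the TATA motif was found in any of the 8 promoters, whereas 4.72, 7.81 and 13.6% of the 32851 promoters in the table hold them. GGGCGG was found in 4 of the 8, those of Mgarp (position -36 from the start), Pcolce (position -60), Htra1 (position -139) and the first of Cyp11a1 (position 6), beside 35.7% of all promoters. The windows are short and a match is only a match of letters. No motif searched was thus common to the 10 genes in these windows.

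Sparc encodes a secreted glycoprotein that binds collagen. Replicate 1 had log2 intensities of 13.84, 13.57, 13.38 and 13.56 in WT cells and 10.67, 10.27, 10.44 and 10.43 in KO cells. Replicate 2 had 10.18, 10.14, 10.19 and 9.71 in WT cells and 12.17, 12.22, 11.93 and 12.04 in KO cells. All values were well above background and the cultures stayed apart, except that KO of replicate 1 and WT of replicate 2 came within 0.12 of each other at 1 h. The log2 KO/WT was -3.30 to -2.93 in replicate 1 and 1.73 to 2.32 in replicate 2. A second, dimmer Sparc probe gave means of -2.30 and 1.18, where the probe used gave -3.13 and 2.03.

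Pcolce encodes an enhancer of the protease that trims procollagen. It had 11.62, 11.64, 11.48 and 10.77 in WT cells and 7.69, 7.65, 7.52 and 7.12 in KO cells of replicate 1. The replicate 2 levels were 7.41, 7.08, 6.95 and 6.75 in WT cells and 9.39, 9.34, 9.32 and 9.22 in KO cells. The WT excess was 12.6- to 15.9-fold in replicate 1 and the KO excess 3.95- to 5.53-fold in replicate 2. The divergence was thus larger in replicate 1 at each of the 4 time points.

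Htra1, a secreted serine protease, had 12.20, 12.03, 11.97 and 11.63 in WT cells and 8.24, 8.15, 8.29 and 7.79 in KO cells of replicate 1. In replicate 2 the levels were 8.17, 8.11, 7.87 and 7.22 in WT cells and 10.47, 10.59, 10.41 and 9.97 in KO cells. The ratios of Htra1 were close to each other within a replicate, its log2 KO/WT being -3.84 ± 0.12 on the arrays of replicate 1 and 2.52 ± 0.19 on those of replicate 2 (SD over 4 arrays).

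Sfrp2 encodes a secreted Frizzled-related protein, which binds Wnt ligands. Its levels were 9.76, 9.83, 9.95 and 10.18 in WT cells and 6.79, 6.78, 6.65 and 6.57 in KO cells of replicate 1. In replicate 2 they were 6.97, 6.48, 6.28 and 6.27 in WT cells, the last 3 not well above background, and 9.72, 9.40, 9.28 and 9.37 in KO cells. Here the high WT and the high KO culture nearly met, at 9.76 and 9.72 without LPS. The WT excess of replicate 1 was 7.85- to 12.2-fold. The KO excess of replicate 2 was 6.73-fold without LPS and at least 6.41-fold at 4 h.

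Clu encodes clusterin, an extracellular chaperone. In replicate 1 it had 12.17, 12.12, 12.39 and 12.69 in WT cells and 9.10, 8.97, 9.41 and 8.92 in KO cells. Levels in replicate 2 were 8.36, 8.35, 8.47 and 8.13 in WT cells and 11.11, 11.39, 11.63 and 11.03 in KO cells. Clu diverged by similar amounts in both, 3.24 ± 0.36 in favour of WT in replicate 1 and 2.96 ± 0.18 in favour of KO in replicate 2.

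Cpe encodes carboxypeptidase E, which trims basic residues from peptide hormones after proprotein convertases have cut them. Its levels were 11.56, 11.54, 11.60 and 9.94 in WT cells and 7.77, 7.91, 7.85 and 6.89 in KO cells of replicate 1. In replicate 2 they were 7.74, 7.45, 7.53 and 6.80 in WT cells and 9.97, 10.10, 10.10 and 8.84 in KO cells. All 4 cultures had their lowest level at 24 h. The other Cpe probes, 2 in number, had mean log2 ratios of -3.88 and 2.51 and of -2.08 and 1.08 in replicates 1 and 2, so all 3 probes opposed each other between the replicates.

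Ephx2 encodes soluble epoxide hydrolase, an enzyme of lipid epoxide breakdown. It had 11.61, 11.60, 11.53 and 10.83 in WT cells and 7.95, 7.74, 7.57 and 7.29 in KO cells of replicate 1. In replicate 2 it had 7.16, 6.98, 6.30 and 6.91 in WT cells, where the value at 4 h was not well above background, and 9.26, 9.10, 9.28 and 9.22 in KO cells. The WT excess was 11.7- to 15.6-fold in replicate 1, and the KO excess 4.31- to 4.97-fold in replicate 2 at the 3 time points with both channels above background.

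**Figure D2:**
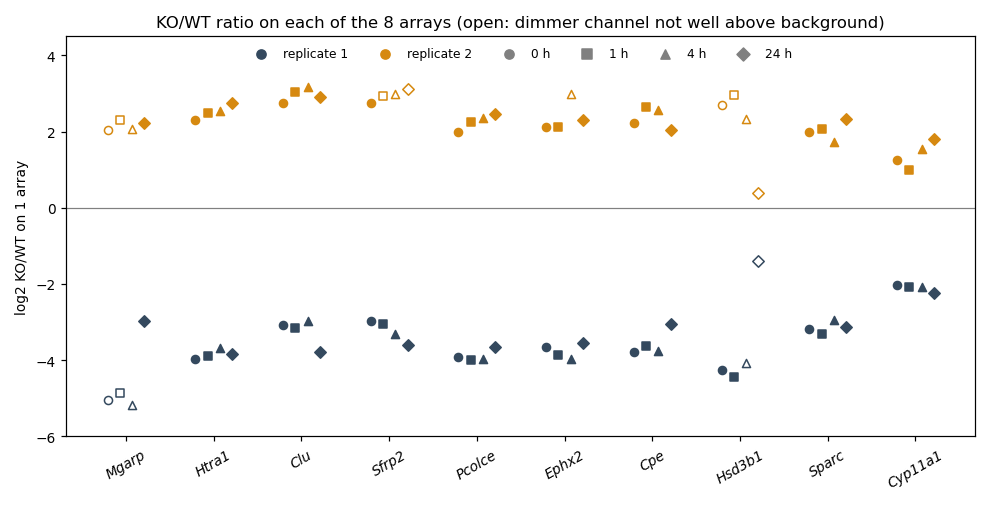
Log2 KO/WT on each array for the 10 genes, replicate 1 in dark blue and replicate 2 in orange, with a marker shape per time point and open markers where the dimmer channel was not well above background. All 40 ratios of replicate 1 lie below 0 and all 40 of replicate 2 above it, and within each replicate the 24 h point of Hsd3b1 lies nearest to 0.

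Over the time points, the difference in log2 KO/WT between the replicates ran from -6.68 for Mgarp to -3.50 for Cyp11a1, with a median of -6.14, beside a median of 0.01 over all genes and transcripts tested. Replicate 1 minus replicate 2 is the direction of these values. By size, 9 of the 10 genes held ranks 1 to 9 of 36947 and Cyp11a1 rank 20. Just inside was Sparc, with -5.16. The next gene by rank, Bex4, which was not selected, had -5.15, and ranks 10 to 19, all of them above Cyp11a1, were held by genes and transcripts outside the selection. The same difference passed the threshold (adjusted p under 0.05, limma) for 3629 of 36947 genes and transcripts, or 9.82%, of which 1667 (4.51%) were below 0 like the selected genes and 1962 (5.31%) above it. The count depended on the processing, with 433 called from Feature Extraction's processed signals. It was 1541 without either unstimulated array, 1779 without either 1 h array, 2297 without either 4 h array and 2895 without either 24 h array. Leaving out 1 array takes its whole time point out of this difference, so the 2 arrays of a time point are not separate checks.

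Levels were also set side by side within a dye. They are the levels behind the ratios on which the genes were selected, in another pairing, so the differences are a description without a test and nothing is read from their counts. The WT culture of replicate 1 exceeded the KO culture of replicate 2 at all 4 time points in 10 of 10 genes, an order that 12.4% of all genes and transcripts had. The mean difference ran from 0.49 ± 0.34 for Sfrp2 (SD over the 4 time points) to 2.53 ± 0.96 for Mgarp, with a median of 1.65 over the 10 genes. Cyp11a1 differed by 1.71 ± 0.13, Sparc by 1.50 ± 0.14 and Clu by 1.05 ± 0.43. In Cy5 the KO culture of replicate 1 exceeded the WT culture of replicate 2 at all time points in 7 of 10 genes, beside 8.75% of all. The exceptions were Mgarp and Sfrp2 without LPS and Hsd3b1 at 24 h. These Cy5 differences were smaller, from 0.17 ± 0.19 for Mgarp to 1.01 ± 0.20 for Cyp11a1, with a median of 0.41. For Mgarp, Sfrp2, Cpe and Htra1 they were about the size of the spread over the time points. Cpe and Htra1 kept the order at all 4 time points, but by small margins, so the order of the lower cultures is not firm for these genes. Each difference is between 2 cultures and has no replicate of its own.

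**Figure D3:**
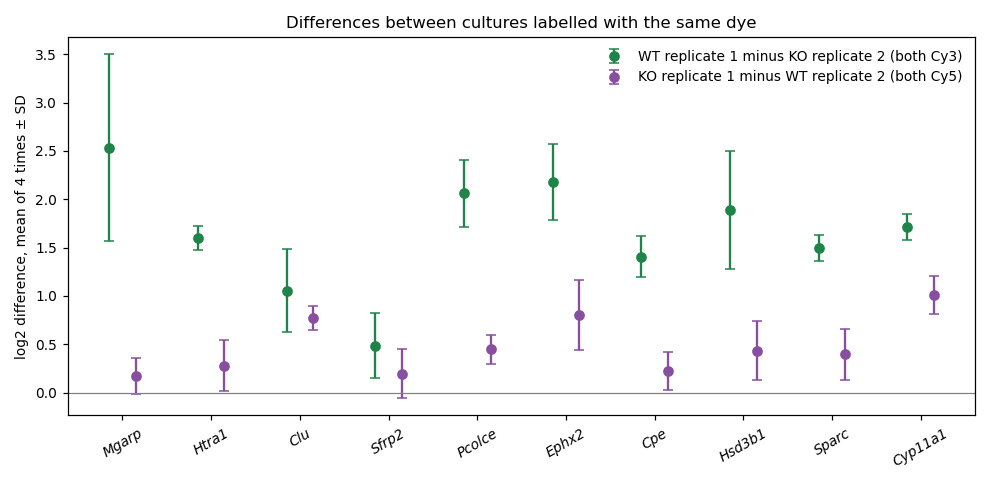
Difference in log2 intensity between cultures that carried the same dye, for each of the 10 genes, as the mean of 4 time points with the SD as error bar. The Cy3 differences (WT replicate 1 minus KO replicate 2, green) lie between 0.49 and 2.53, and the Cy5 differences (KO replicate 1 minus WT replicate 2, purple) between 0.17 and 1.01.

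The study asked how loss of FURIN changes expression in macrophages, and for these genes that comparison rests on replicates of opposite sign. Averaged over all 8 arrays, the log2 KO/WT was below 0 for each gene, from -0.14 for Clu to -1.18 for Mgarp, with a median of -0.63 beside 0.00 over all genes and transcripts. Standard errors were 0.60 to 1.15. The sign was not stable, since 138 of 170 such means recomputed with other processing or fewer arrays were below 0. None of the 10 genes was called by limma without a replicate term (0 at an unadjusted p under 0.05 as well), where 0.566% of all genes and transcripts were. The spread that enters this test is the one for which the genes were selected, so missing the threshold says nothing on whether KO and WT differed.

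Blocking on the replicate number takes out the replicate difference on which the genes were selected, in a fit to the same ratios. Its calls for these genes are therefore given as a description and nothing is read from them. In limma 7 of the 10 genes passed with a mean below 0, beside 5.99% of all genes and transcripts in either direction. They were Pcolce with a log2 KO/WT of -0.81, Htra1 with -0.66, Sparc with -0.55, Mgarp with -1.18, Ephx2 with -0.69, Cpe with -0.59 and Cyp11a1 with -0.35. Clu with -0.14, Sfrp2 with -0.14 and Hsd3b1 with -0.73 did not pass. A mean below 0 here says that the WT excess of replicate 1 was larger than the KO excess of replicate 2, not that KO was lower in both replicates, since KO was higher in replicate 2 on every array. From Feature Extraction's processed signals none of the 10 passed in this fit, with means from -1.14 for Mgarp to 0.12 for Sfrp2. The mean of Hsd3b1 ran from -1.37 without the 24 h array of replicate 1, where it passed, to -0.09 without that of replicate 2, where it did not. Cyp11a1 did not pass without replicate 2 of the unstimulated or 1 h arrays or replicate 1 of the 4 h arrays.

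At single time points none of the 10 genes was called without the block, nor at an unadjusted p under 0.05, where 0, 0, 5 and 9 of all genes and transcripts were called at 0, 1, 4 and 24 h (0.0135% at 4 h and 0.0244% at 24 h). With the block 3, 3, 3 and 2 of the 10 passed, all with a mean below 0, beside 1.06, 0.574, 0.566 and 0.585% of all, and the same limit applies to these counts. Pcolce and Htra1 had mean log2 ratios of -0.97 and -0.83 in unstimulated cells and of -0.59 and -0.54 at 24 h.

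LPS responses were compared next, since the selection did not use them. Averaged over the genotypes, none of the 10 genes was called at 1, 4 or 24 h in the separate-channel fit of limma without culture terms, nor at an unadjusted p under 0.05, while 14.4, 42.5 and 37.0% of all genes and transcripts were. The standard errors of the 10 genes were 0.94 to 1.57, again because the cultures lay so far apart. With a term for each culture, none was called at 1 or 4 h (17.4 and 45.0% of all), and 4 of 10 at 24 h, all lower, beside 39.5% of all. That share is near the background.

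The 4 genes called at 24 h were Cpe, Htra1, Pcolce and Hsd3b1. Cpe fell by 1.15 on the log2 scale (standard error 0.15, adjusted p = 3.16e-05), with changes of -1.62 in WT and -0.88 in KO cells of replicate 1 and -0.95 in WT and -1.13 in KO cells of replicate 2. Htra1 fell by 0.62 (0.09, 8.59e-05) and Pcolce by 0.56 (0.11, 0.000608), each in all 4 cultures. Hsd3b1 fell by 1.75 (0.60, 0.0342), where Feature Extraction's processed signals gave a fall of 3.32 (adjusted p = 0.0122), and it did so unevenly. It changed by -3.54 in WT cells of replicate 1, which were well above background at both times. The values of -2.55 in KO cells of replicate 2, which also started high, and of -0.69 and -0.23 in the other cultures end at levels that were not well above background, so the size of these drops is not determined. The Hsd3b1 call was lost without either unstimulated array (adjusted p = 0.154 and 0.128) or either 4 h array (0.0526).

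Cyp11a1 was not called. It had differences of 0.04, -0.18, -0.43 and 0.12 at 24 h in WT and KO of replicate 1 and WT and KO of replicate 2, a mean of -0.11 (standard error 0.12, adjusted p = 0.536 with culture terms). Mgarp went in opposite directions, by -0.94 in the high WT culture and by 1.12, 0.68 and 0.87 in the other cultures, for a mean of 0.43 that was not called (adjusted p = 0.257). The values of 1.12 and 0.68 start from levels that were not well above background. Their size, and with it the size of any mean of Mgarp, is therefore not determined. Its mean was 0.84 (adjusted p = 7.26e-05) without the 24 h array of replicate 1 and 0.02 (0.933) without that of replicate 2. Ephx2 and Sparc averaged -0.43 and -0.28 and were not called (adjusted p = 0.0768 and 0.0844), although both passed without either 4 h array (0.0193 and 0.0400). Ephx2 had -0.76 (0.00715) without the 24 h array of replicate 2 and -0.10 (0.757) without that of replicate 1. Sfrp2 had -0.49 and passed without the unstimulated array of replicate 1, and had 0.06 (0.806) without that of replicate 2. Clu and Sfrp2 showed values of 0.52 and 0.42 in WT cells of replicate 1 and were below 0 in the remaining cultures.

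**Figure D4:**
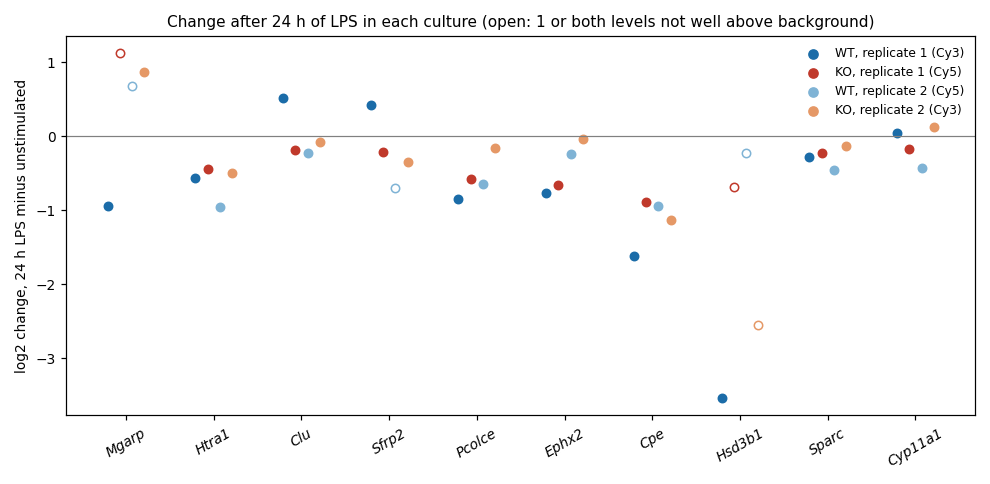
Change in log2 intensity from unstimulated cells to 24 h of LPS for each of the 10 genes, 1 point per culture, open where either level was not well above background. Cpe, Htra1, Pcolce, Hsd3b1, Ephx2 and Sparc lie below 0 in all 4 cultures, with Hsd3b1 at -3.54 and, ending at a level not well above background, -2.55 in the cultures where it started high, while Cyp11a1 stays within -0.43 and 0.12.

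Whether the LPS response differed between the genotypes was tested as a change of KO/WT from unstimulated cells. None of the 10 genes was called at 1, 4 or 24 h in either fit (in limma without the block 0 of them at an unadjusted p under 0.05, with the block 0, 0 and 3). Of all genes and transcripts, 0 were called without the block, and 0, 0.0325 and 0.211% with it. The largest value was that of Mgarp at 24 h, 1.12, from ratios that rest on levels near background before LPS.

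The name steroidogenic was checked against 21 other genes of steroid hormone synthesis, of which 7 were called in the difference between replicates and all 7 in the direction of the selected genes. In percent this is 33.3 beside 9.82 of all. The median difference of the list was -0.22, beside 0.01 over all genes and transcripts. They included Fdx1 (-1.34, adjusted p = 2.25e-05) and Fdxr (-1.15, 2.66e-05), the electron carriers of CYP11A1, as well as Hsd3b6 (-1.26, 0.00176), SF-1 itself (Nr5a1, -0.55, 0.00324) and Scarb1 (-0.52, 0.0324), a receptor for cholesterol uptake. Fdx1 averaged 13.17 in WT of replicate 1 and 11.96 to 12.13 in the other cultures, so most of its difference lay in 1 culture. The ratios of the called genes were smaller than those of the selected genes in both replicates. Mean log2 KO/WT in replicates 1 and 2 was -1.21 and 0.14 for Fdx1, -0.93 and 0.23 for Fdxr and -0.44 and 0.11 for Nr5a1. It was -0.52 and 0.005 for Scarb1, -0.396 and -0.07 for Tspo, -0.82 and 0.43 for Hsd3b6 and -0.08 and 0.21 for Cyp11b1. Tspo thus had the same sign in both replicates. Star, which carries cholesterol into mitochondria, averaged 6.89 to 7.12 in the 4 cultures (difference 0.11, adjusted p = 0.789). Cyp17a1 averaged 11.26 to 11.36 (difference -0.05, adjusted p = 0.820). Cyp19a1, Cyp11b1, Cyp11b2, Nr0b1 and Akr1b7 were not well above background in any channel, and of these Cyp11b1 was nevertheless among the 7 called. With Feature Extraction's processed signals 2 of the 21 were called, where 1.17% of all were.

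Among 16 measured genes of gonad and adrenal identity 4 were called, all in the direction of the selected genes, or 25.0% beside 9.82% of all, with a list median of -0.11. Mrap, the accessory protein of the ACTH receptor, had -4.31 (adjusted p = 2.63e-05). It averaged 9.32 in WT of replicate 1 and 7.40 in KO of replicate 2 and was not well above background in the other cultures, so the size of the difference is not determined. Inha, the inhibin α subunit, had -1.63 (2.25e-05) and was well above background only in WT of replicate 1. Amhr2 had -0.47 (0.0146) and Gata4, well above background only in WT of replicate 1, -0.40 (0.0126). The receptors Lhcgr and Fshr, Amh and Sult1e1 were not well above background in any channel. With the processed signals 1 of the 16 was called. For reading these shares, 42.9% of the macrophage list (4 genes below 0 and 2 above) and 25.0% of the housekeeping list (1 below and 2 above) were called as well.

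Of 36 genes of fibroblasts and extracellular matrix, 7 were called, 6 of them in the direction of the selected genes, or 19.4% in all beside 9.82% of all genes and transcripts, with a list median of -0.03. With the processed signals 1 of the 36 was called, beside the 1.17% of all. The mean log2 level of the list was 7.01 to 7.24 in WT and 6.95 to 7.20 in KO cells of replicate 1, and 6.92 to 7.16 and 7.03 to 7.23 in those of replicate 2, so the cultures overlapped. Sfrp4, another Frizzled-related protein, had -3.45 (adjusted p = 0.000628), with means of 8.22 in WT of replicate 1 and 7.80 in KO of replicate 2 and no sample well above background in the other cultures, so that its size is likewise not determined. The basement membrane collagens Col4a1 and Col4a2 had -1.72 (8.54e-07) and -0.88 (0.00259), and Fbln2, with mean ratios of -0.65 and 0.36 in the replicates, passed as well (0.0307). Thy1, which T cells also carry, went the other way with 1.33 (2.53e-05). The fibrillar collagens that define fibroblasts were not called. Col1a1 had -0.32 (adjusted p = 0.0818), Col1a2 0.07 (0.734) and Col3a1 -0.05 (0.831), at mean levels of 6.66 to 6.93, 8.02 to 8.19 and 6.60 to 6.69. Dcn, a collagen-binding proteoglycan, had 0.15 (0.444), and Pdgfra was not well above background in any channel, like Col5a2, Col6a3, Dpt, Fbln1, Igfbp5 and Loxl1. Stromal is therefore not a name that the defining fibroblast genes bear out here, and the genes are called by their names.

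Markers of other cells that the peritoneal wash could hold were counted in the same difference, in which 4.51% of all genes and transcripts were called below 0 and 5.31% above it. The mesothelial, smooth muscle, endothelial and adipocyte lists had 13.3, 10.0, 10.0 and 10.0% called, near the 9.82% of all when both directions are counted together. The few calls were below 0 in the first 2 of these lists and above 0 in the others. Mesothelial genes gave 2 of 15 called, Aldh1a1 (-2.99, adjusted p = 1.64e-06) and Efemp1 (-0.96, 0.00625), with Bnc1, Lrrn4 and Rspo1 well above background nowhere and Msln not called (0.13, 0.594). Smooth muscle genes gave 1 of 10 (Tagln, -1.90, 0.000315), with 6 of the 10 not well above background in any channel. The endothelial list gave Plvap (0.74, 0.00122) and the adipocyte list Lpl (0.71, 0.0102), each 1 of 10, and Adipoq and Cdh5 were not well above background. Among mast cell genes 5 of 8 were called in the direction of the selected genes, led by Cma1 (-1.34, 0.000448) and Cpa3 (-1.19, 0.00105), followed by Fcer1a, Kit and Tpsb2 (list median -0.69). Their ratios differed from those of the selected genes, since the mean log2 ratio of Cma1 was -0.20 in replicate 1 but 1.14 in replicate 2, and that of Cpa3 was 0.01 and 1.20. T and NK cell genes went the other way in 5 of 10 (Cd3d 1.56, Lck 1.17, Cd3g 0.88, Cd3e 0.73 and Cd8a 0.50), as did 2 of 9 B cell genes (Cr2 0.99 and Cd79a 0.57). Of 14 macrophage genes 6 were called, 4 in the direction of the selected genes, and the largest was Fcgr1 with -1.01. Of 12 housekeeping genes 3 were called, the largest being Tbp with 0.42. Of 5 sex-specific genes Xist was called (0.56, adjusted p = 0.0199). It was well above background in all 16 channels, the Y-linked Eif2s3y in 1 channel of each replicate 2 culture, and the Y-linked Ddx3y, Kdm5d and Uty in none. The part of any of these cells in the pattern of the selected genes was not tested.

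**Figure D5:**
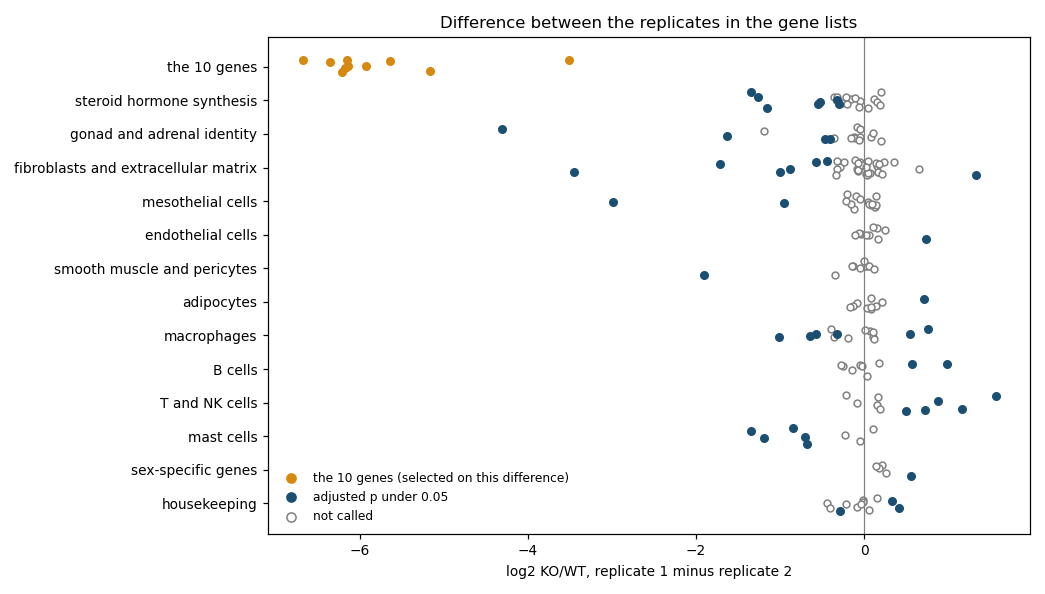
Difference in log2 KO/WT between replicates 1 and 2 (horizontal axis) for each gene of the lists (rows, with vertical scatter only to separate points), filled blue where the adjusted p was under 0.05, white where it was not, and orange for the 10 selected genes, which were selected on this difference and are shown as a description. The selected genes lie between -6.68 and -3.50, and the nearest list genes are Mrap at -4.31, Sfrp4 at -3.45 and Aldh1a1 at -2.99.

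The selected genes also varied together over the 16 channels. Pearson's r between pairs of them ran from 0.789 (Sfrp2 and Hsd3b1) to 0.993 (Pcolce and Ephx2), with a median of 0.939 over 45 pairs, and 33 pairs were above 0.9. The channels share arrays and normalization and the genes were chosen for a common pattern, so these values only describe it. Hsd3b1, which came down with LPS, took part in the lowest values.

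Among 13549 named genes compared, those most like the mean profile of the selected genes were Bex4 (r = 0.980 over 16 channels), Fkbp10 (0.979), Grem1 (0.979), Serpinh1 (0.975), Gpx8 (0.971), Parm1 (0.970), Ppic (0.970), Nrn1 (0.959), Epdr1 (0.959) and Fat1 (0.950). Serpinh1 encodes the collagen chaperone HSP47, Fkbp10 a prolyl isomerase that acts on procollagen, and Grem1 a secreted BMP antagonist. Bex4 averaged 9.72 in WT of replicate 1, 7.87 in KO of replicate 2, 6.15 in KO of replicate 1 and 6.28 in WT of replicate 2. Closest to Cyp11a1 were Parm1 (0.978), Aebp1 (0.969), Ephx2 (0.961), Fkbp10 (0.959) and Serpinb6b (0.956). For Sparc the order was Htra1 (0.991), Pcolce (0.988), Serpinh1 (0.980), Ephx2 (0.978) and Gpx8 (0.976), and for Mgarp it was Serpinh1 (0.971), Echdc2 (0.964), Parm1 (0.963), Ephx2 (0.960) and Smoc1 (0.960).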

How the data were processed

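RNA of WT and FURIN KO peritoneal macrophages had been hybridized to 8 Agilent 2-colour arrays. The authors extracted the deposited spot intensities with Agilent Feature Extraction 10.7.3 (per the labels), and limma is also named in the submitters' processing notes. A deposited matrix of log2 ratios (Cy5 over Cy3), made by the authors, served only as an alternative. Median spot intensities were corrected with normexp (offset 50), normalized by loess within and quantiles between arrays (limma 3.58.1, R 4.3.3), averaged by probe, and the brightest probe was kept for each gene. Probes were named through RefSeq identifiers (27509 of 55681, for 20887 genes), and genes with a mean log2 intensity under 6 were left out. KO/WT ratios were fitted with lmFit and eBayes with a coefficient per time point, LPS effects by separate-channel analysis (statmod 1.5.0, within-spot correlation 0.116, or 0.258 with culture terms), with Benjamini-Hochberg adjustment over all genes and transcripts tested and a threshold of 0.05. The fits were tested on simulated data.

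The labels number the arrays as biological replicates 1 and 2 at every time point. The difference between them in KO/WT correlated across genes between time points (r from 0.475 to 0.679 over 6 pairs). Because the dyes were swapped with the replicate number at every time point, this cannot show whether the numbers pair the samples. Results with a replicate block, which is also a dye term, are given beside the others. What separates the replicates is not stated, and p-values measure the spread between these arrays. All arrays were on 1 slide. The growth protocol names 4 h of stimulation for every sample, and samples were assigned by their titles.

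The members, lists and tests were chosen with earlier results of these data known. Named in the text are all members, up to 5 called genes of each list with the largest difference, defining markers not well above background, and the genes most similar in profile. Alternatives were processed signals, loess only, Aquantile, other filters, the mean of all probes, the deposited matrix, each array left out, the replicate block and the methods' t-test. Genome positions of the probes are not given. Protein sequences were not analysed here.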

Additional observations from a re-analysis of the deposited data

How the results depend on the processing

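The difference between the replicates stayed below 0 for all 10 genes in each of the 160 values recomputed, from -11.25 to -3.32, and from -7.17 to -3.32 when 1 array was left out. With the processed signals, which have no offset and another background correction, it was larger, and the part of either was not tested. They gave 433 called genes and transcripts in place of 3629. By list they gave 2 in place of 7 genes of steroid synthesis, 1 in place of 4 of gonad and adrenal identity and 1 in place of 7 of fibroblasts and matrix. Without 1 array, which takes its time point out of this difference, these counts lay between 1541 and 2895, 4 and 7, 2 and 5, and 5 and 6.

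The replicate block, which for KO/WT works on the ratios that chose the 10 genes, raised the calls for the mean KO/WT from 209 to 2212, with 7 of the 10 genes in place of 0, and at 0, 1, 4 and 24 h from 0, 0, 5 and 9 to 391, 212, 209 and 216, with 3, 3, 3 and 2 of the 10 genes. For the change of KO/WT it called 12 at 4 h and 78 at 24 h in place of 0, and for LPS at 24 h it called 4 of the 10 genes in place of 0. In the blocked fits, recomputed after the data were seen, without each array or with other signals, 6 to 8 of the 10 genes were called for the mean KO/WT without 1 array and 0 with processed signals, and 3 to 5 for LPS at 24 h.

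Other counts of genes and transcripts for the mean KO/WT were 0 with processed signals, 137 with detection in at least 4 channels, 129 with the mean of all probes, 113 without both 24 h arrays (added after the data were seen) and between 1 and 159 without 1 array. Without the block, leaving out an array of replicate 1 turned the mean KO/WT of some of the 10 genes positive. With the processed signals the mean of Sfrp2 was positive as well (0.12 in the blocked fit). Of 170 values recomputed 138 were below 0, and none of the positive values was called. At 4 h the counts were 0 with processed signals, 3 with the detection filter, 3 with the deposited matrix and 0 with the methods' t-test after adjustment. At 24 h they were 0 with processed signals, 14 with loess only, 14 with Aquantile, 5 with the detection filter, 4 with the mean of all probes, 14 with the deposited matrix and 0 with the t-test. Without 1 array they lay between 0 and 3, 0 and 10, 0 and 8, and 0 and 11 at 0, 1, 4 and 24 h, and for the change of KO/WT between 0 and 9 at 1 h. The LPS counts lay between 3145 and 5423 at 1 h. Unadjusted, the methods' t-test passed 1694, 1754, 1128 and 1514 genes and transcripts and none of the 10. The causes were not tested. Levels not well above background limit Mgarp, Hsd3b1 and Sfrp2 in the low cultures, Hsd3b1 in KO of replicate 2 at 24 h and Ephx2 in WT of replicate 2 at 4 h to bounds, and Mrap, Inha, Gata4 and Sfrp4 in the cultures named with them.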
